A study of Homo sapiens with 6 samples.

Results

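The genes described here encode the protein parts of the spliceosomal snRNPs and their Sm-like relatives. They were chosen by symbol, as protein-coding genes whose names start with SNRP, LSM followed by a digit, SF3A, SF3B, PRPF or U2AF. Each also had to reach a summed unstranded count of at least 200 over the 4 mimic libraries. Of 50 protein-coding genes with such symbols, 47 passed, among 13078 genes tested (11747 of them protein-coding) and 60708 genes in the count tables. The 47 were 11 SNRP genes, 13 LSM genes, 3 SF3A genes, 6 SF3B genes, 13 PRPF genes and U2AF2. SNRPN, U2AF1 and U2AF1L4 were left out by the count filter.

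MDA-MB-231, a mesenchymal line derived from a human breast tumour of the triple-negative type, was studied by Ago-RIP-seq to find the mRNAs that join AGO2 when miR-99b-5p is raised. The cells were transfected with a miR-99b-5p mimic or with a scrambled negative control, both at 25 nM for 18 h, and RNA was taken from the AGO2 immunoprecipitate (AGO2-IP) and from the flow-through, the RNA left unbound. There were 2 mimic AGO2-IP libraries, 2 mimic flow-through libraries, 1 control AGO2-IP library and 1 control flow-through library, and the fraction of each control library rests on its label, since the study's own list of libraries gives both as control replicates with no fraction. What is said here of the fractions of control cells holds only if the labels do. All libraries come from this single line, and only the mimic groups have replicates, which the labels number as biological replicates.

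In splicing, the Sm proteins close into a ring around the U1, U2, U4 and U5 snRNAs, and the related LSM proteins form a ring on U6. A second LSM ring in the cytoplasm binds shortened mRNA tails and promotes decapping, in the same pathway through which AGO2 and its partners lead mRNAs to decay. The SF3A and SF3B complexes belong to the U2 snRNP and recognise the branch point, U2AF reads the end of the intron, and the PRPF proteins build and remodel the U4/U6.U5 particle. AGO2 is guided to mRNAs mainly by the seed of its miRNA, which pairs best with sites in the 3′ UTR.

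The sequence of the transfected miRNA is shown because it defines which letters a seed match in these mRNAs would have. The seed, bases 2 to 8, is in capitals, and it is shared with miR-99a-5p and miR-100-5p (RefSeq, GRCh38.p14).
hsa-miR-99b-5p (chr19:51692618-51692639, plus strand): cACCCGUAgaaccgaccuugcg
hsa-miR-99a-5p (chr21:16539101-16539122, plus strand): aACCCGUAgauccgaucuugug
hsa-miR-100-5p (chr11:122152275-122152296, minus strand): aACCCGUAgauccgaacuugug

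The letters ACGGGT, which pair with bases 2 to 7, were searched on the sense strand of 1 annotated transcript per gene (GENCODE 44, GRCh38). They were present in 5 of the 47 members (10.6%) and in 17.1% of all 11747 protein-coding transcripts tested. A match of at least 7 letters (TACGGGT, or ACGGGT followed by A, both of which contain the 6 letters) was present in 2 members and in 5.71% of all. In the 3′ UTR, 2 members held the 6 letters (6.67% of all transcripts did) and 0 held 7 letters (2.21% of all). Of the 5 sites, 4 are shown with the matching letters in capitals, and the other is not reported here. Coordinates are of the windows shown, and each window lies in 1 exon.
PRPF8, coding, ACGGGT followed by A (chr17:1660532-1660553, minus strand): tagacctgACGGGTatcttcat
SNRPA1, coding, 6 letters (chr15:101281721-101281742, minus strand): agtcacaaACGGGTcctgagca
SNRPE, 3′ UTR, 6 letters (chr1:203870917-203870938, plus strand): tattaaggACGGGTgaggaagg
SF3B3, 3′ UTR, 6 letters (chr16:70577493-70577514, plus strand): ccttggggACGGGTgaggagtt

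The libraries differed in ways that touch every value here. Counts on genes ran from 38022779 to 48544756 in the mimic libraries and were 8076375 in the control AGO2-IP and 7772149 in the control flow-through, where at least 92.3% of read pairs fell outside the gene counts, against 21.4% to 47.2% in the mimic libraries. Mitochondrial genes took 43.4% of the gene counts of the control flow-through and at most 3.48% elsewhere. The markers VIM, CD44, EGFR and AXL lay between 59.0 and 2729 CPM. ESR1, PGR, CDH1, PTPRC, CD3E and DCN did not exceed 3.96 CPM, while EPCAM reached 11.8 and the fibroblast marker PDGFRB 21.7 CPM, both in the control AGO2-IP. CPM are gene counts scaled to a common library total, without TMM, the scaling of edgeR that allows for differences in composition. The 47 members together took 0.729% and 0.712% of the gene counts of the mimic AGO2-IP libraries. They took 0.495% and 0.363% in mimic flow-through, 0.385% in control AGO2-IP and 0.222% in control flow-through. These are bulk libraries of relative counts, so fewer cells holding an mRNA and less of it per cell cannot be told apart.

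Spliceosomal genes had widely different ratios of AGO2-bound to unbound RNA in mimic-transfected cells, with values on both sides of 0 within single complexes. The log2 fold change of AGO2-IP over flow-through ran from -3.58 for SF3B5 to 3.23 for SF3B1, which are subunits of the same SF3B complex. Only SF3B5 passed the thresholds of edgeR's quasi-likelihood test (an absolute log2 fold change of at least 1 and an adjusted p of at most 0.05). It was depleted, and 0 members were enriched. Among all 13078 genes 0.245% were called enriched and 0.413% depleted. At an unadjusted p under 0.05 there were 10 members with positive and 8 with negative values (21.3% and 17% of the members), against 10.6% and 13.1% of all genes. With the replicate number as a block, 5 members were called enriched (SF3B1, SNRPD1, SNRPE, SNRPA1 and LSM6) and 5 depleted (SF3B5, SNRPD2, LSM2, LSM7 and LSM12), each 10.6% of the members against 4.6% and 5.08% of all genes. PyDESeq2, the tool of the study's methods, called 7 in each direction (14.9% each), against 6.45% and 8.26% of all genes. With each library's GC trend removed, edgeR called 3 members in each direction (6.38% each), against 3.32% and 2.36% of all genes. With the block as well it called 11 and 10 (23.4% and 21.3%), against 14% and 12.7%. With the block and the length trend removed it called 5 and 2 (10.6% and 4.26%), against 5.08% and 3.42%, and with the length trend removed alone it called 0 members and 0 of all genes.

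Both AGO2-IP libraries lay above both flow-through libraries for 18 members (38.3%, against 28.1% of all genes), and both lay below for 15 (31.9%, against 28.5%). The remaining members overlapped. By size alone, 16 members reached a log2 fold change of 1 or more (34%, against 20% of all genes) and 15 one of -1 or less (31.9%, against 26.9%). The median of the 47 log2 fold changes was 0.29, where that of all genes tested was -0.11.

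**Figure D1:**
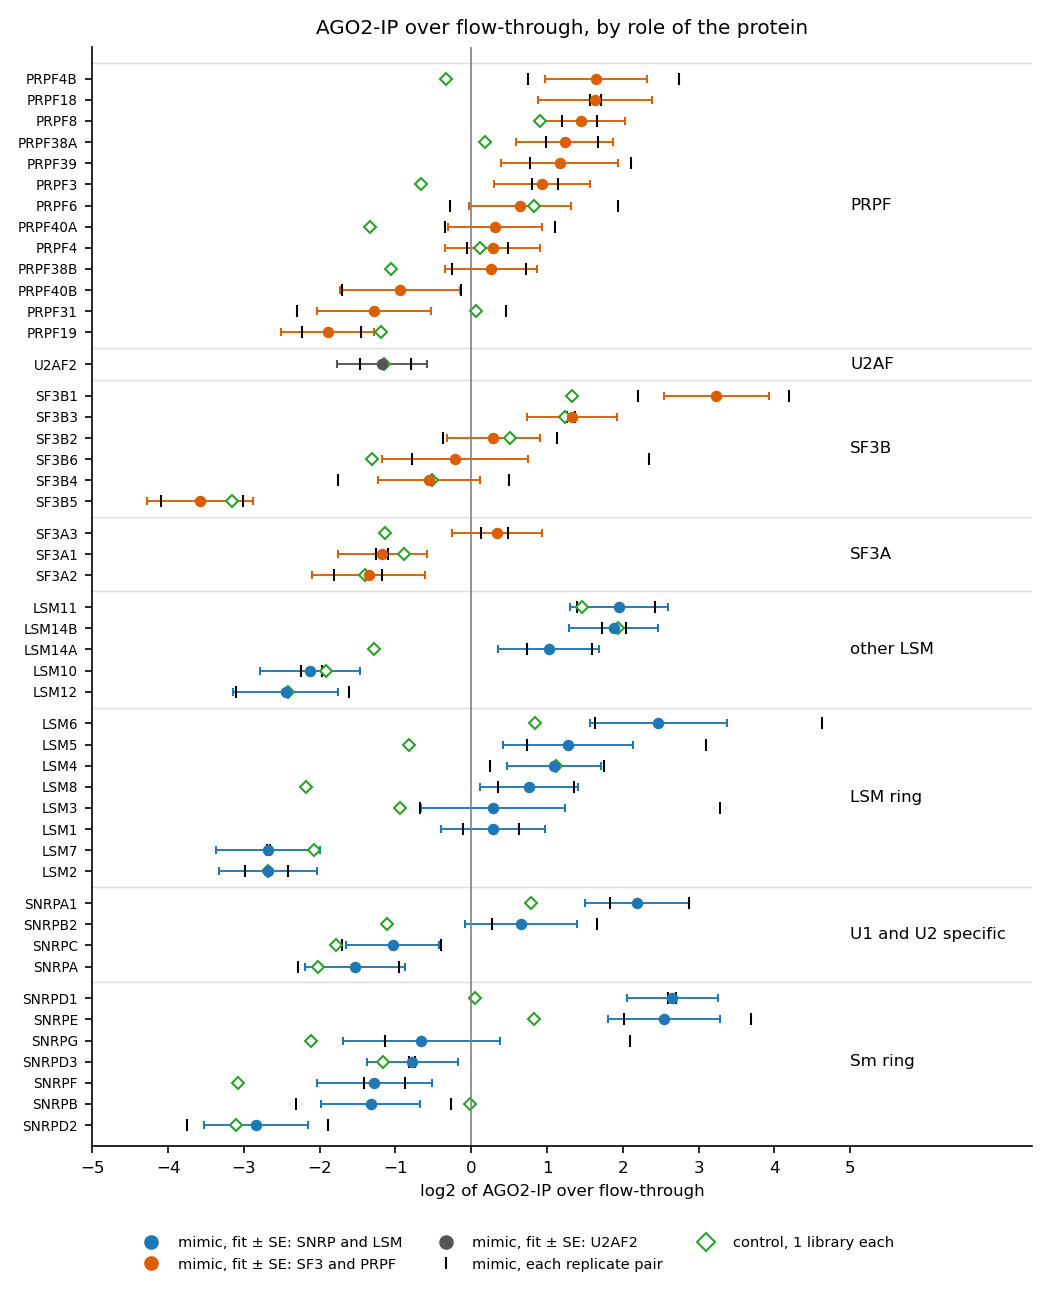
The x axis is the log2 ratio between AGO2-IP and flow-through, with members grouped by role on the y axis. Filled circles with bars are the mimic fit with its standard error (n = 2 per fraction), black ticks are the ratio within each replicate pair, and open diamonds are the single control pair. The SF3B group holds both the lowest value (SF3B5, -3.58) and the highest (SF3B1, 3.23).

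The genes of the Sm ring lay on both sides of 0. Of the 7 measured, SNRPD1 and SNRPE had positive log2 fold changes and the other 5 had negative ones, with a median of -0.78. SNRPD1 encodes SmD1, which sits beside SmD2 in the ring. It had 586 and 471 CPM in the mimic AGO2-IP and 102 and 65.5 CPM in the flow-through, with 124 CPM in the control AGO2-IP and 64.1 CPM in the control flow-through. The AGO2-IP values were above the flow-through values in mimic cells with no overlap, at a log2 fold change of 2.65 (SE 0.60, edgeR adjusted p = 0.062, and 0.0084 with the replicate block). In the control pair the log2 ratio was 0.05 after TMM, which moved the median control ratio of all genes by 0.88 from its value with library size alone.

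SNRPD2, which encodes the neighbouring SmD2, lay at the other end. It had 11.8 and 20.8 CPM in the mimic AGO2-IP, 180 and 64.6 CPM in the flow-through, 18.4 CPM in the control AGO2-IP and 86.7 CPM in the control flow-through. In both conditions the AGO2-IP was lower, with a mimic log2 fold change of -2.84 (SE 0.69, edgeR adjusted p = 0.066, and 0.010 with the replicate block). The proteins of SNRPD1 and SNRPD2 are made from coding sequences of similar length, 357 and 354 nt, while their annotated transcripts have 4858 and 515 nt. The 2 transcripts also differ in GC content, 40.2% and 53.8%. With each library's GC trend removed the log2 fold changes were 1.79 for SNRPD1 and -2.56 for SNRPD2. SNRPE, encoding SmE, had a log2 fold change of 2.55 (SE 0.74, edgeR adjusted p = 0.092, and 0.0077 with the block), and its only seed match is the 6-letter 3′ UTR site above.

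The remaining Sm genes had smaller values. SNRPB, which encodes SmB, had a log2 fold change of -1.33 (SE 0.66), SNRPF -1.28 (SE 0.76), SNRPD3 -0.78 (SE 0.60) and SNRPG -0.66 (SE 1.04), and none of these 4 passed the test with or without the block. SNRPG, encoding SmG, was singled out after its values were seen, because its flow-through replicates were 88.1 and 3.05 CPM (4141 and 148 counts). Its AGO2-IP libraries, at 35.4 and 15.6 CPM, lay between them, and its sign is not settled: the log2 fold change was 0.47 with the replicate block, 2.73 without flow-through replicate 1 and -1.62 without replicate 2. In units of CPM per kb of annotated transcript, a scale that allows genes to be compared, SNRPE was the highest Sm gene in both mimic AGO2-IP libraries (235 and 185) and SNRPD3 the lowest (9.09 and 7.53).

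**Figure D2:**
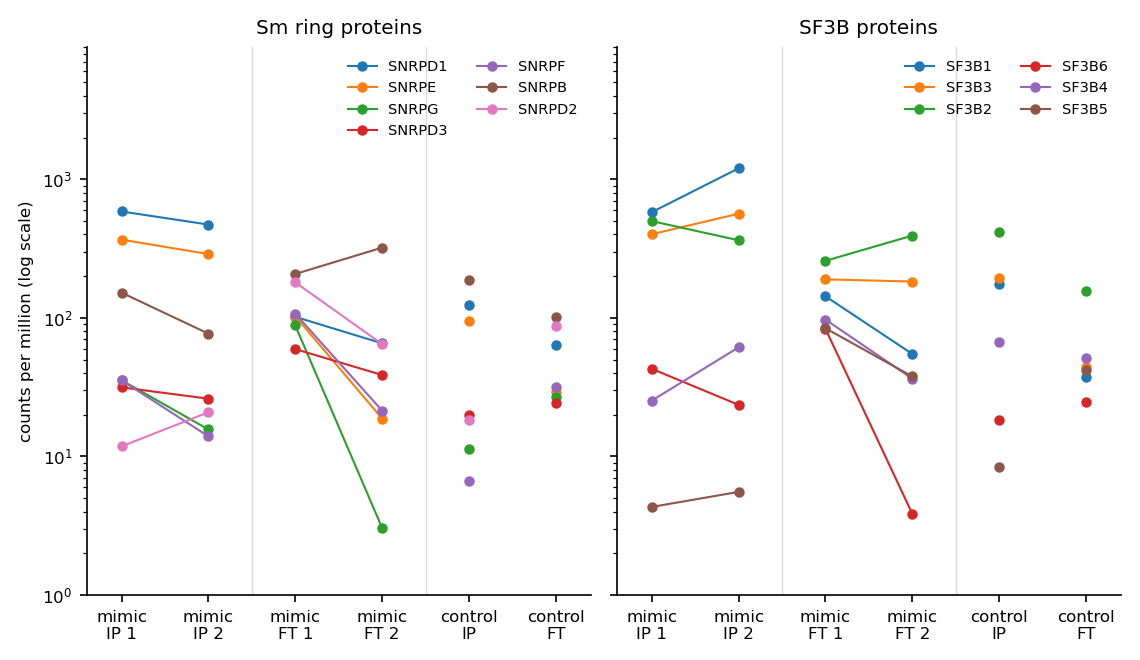
The y axis is CPM on a log scale and the x axis the 6 libraries (IP, AGO2-IP; FT, flow-through), for the 7 Sm ring genes and the 6 SF3B genes. Points are single libraries and lines join the 2 replicates of a group. SNRPD1 and SF3B1 were high in both mimic AGO2-IP libraries, SNRPD2 and SF3B5 were low there, and SNRPG and SF3B6 lay far apart between the flow-through replicates.

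Among the proteins specific to the U1 and U2 snRNPs, SNRPA1, which encodes a U2 protein, had the highest value and SNRPA, which encodes a U1 protein, the lowest. SNRPA1 had 177 and 124 CPM in the mimic AGO2-IP, 56.2 and 14.2 CPM in the flow-through, 67.2 CPM in the control AGO2-IP and 20.8 CPM in the control flow-through. Its log2 fold change was 2.19 (SE 0.69, edgeR adjusted p = 0.11, and 0.029 with the block). SNRPA had 11.3 and 22.6 CPM in the mimic AGO2-IP, 62.7 and 36.7 CPM in the flow-through, 16.1 CPM in the control AGO2-IP and 35.6 CPM in the control flow-through. The groups did not overlap for either gene, and for SNRPA the log2 fold change was -1.53 (SE 0.66, edgeR adjusted p = 0.19). SNRPC, for another U1 protein, was at -1.04 (SE 0.61) and SNRPB2, for another U2 protein, at 0.66 (SE 0.74).

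The 8 genes of the LSM rings had a median of 0.53, with 6 above and 2 below 0. LSM6, a subunit of both the nuclear and the cytoplasmic ring, was the highest. It had 47.1 and 44.9 CPM in the mimic AGO2-IP, 17.1 and 1.48 CPM in the flow-through, 25.9 CPM in the control AGO2-IP and 7.72 CPM in the control flow-through. The AGO2-IP replicates were nearly alike and the flow-through replicates were not, so the log2 fold change of 2.47 has a wide error (SE 0.90, edgeR adjusted p = 0.14, and 0.0087 with the block). LSM2, also in both rings, was the lowest, with 8.69 and 11.7 CPM in the mimic AGO2-IP, 78.3 and 52.4 CPM in the flow-through, 14.1 CPM in the control AGO2-IP and 49.8 CPM in the control flow-through. Its log2 fold change was -2.69 (SE 0.65, edgeR adjusted p = 0.066, and 0.012 with the block), and that of LSM7 was -2.68 (SE 0.68, edgeR adjusted p = 0.074, and 0.014 with the block). LSM1, which defines the cytoplasmic ring, was at 0.28 (SE 0.69), and LSM8, which defines the nuclear ring, at 0.76 (SE 0.65).

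The 5 LSM genes outside these rings had a median of 1.02, with 3 above 0. LSM11 and LSM10 replace SmD2 and SmD1 in the U7 snRNP, which processes histone mRNA, and they lay on opposite sides. LSM11 had 43.6 and 67.6 CPM in the mimic AGO2-IP, 18.7 and 10.5 CPM in the flow-through, 41.9 CPM in the control AGO2-IP and 8.11 CPM in the control flow-through, a log2 fold change of 1.95 (SE 0.65, edgeR adjusted p = 0.12). LSM10 was at -2.13 (SE 0.66, edgeR adjusted p = 0.10). LSM12, a Sm-like protein that belongs to neither ring, was the lowest of these 5, with 8.66 and 11.1 CPM in the mimic AGO2-IP, 85.0 and 28.6 CPM in the flow-through, 18.2 CPM in the control AGO2-IP and 53.0 CPM in the control flow-through. It reached -2.45 (SE 0.69, edgeR adjusted p = 0.089, and 0.036 with the block), although its annotated transcript is not short (2552 nt).

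LSM14A and LSM14B encode P-body proteins that bind the RNA helicase DDX6 and hold mRNAs in a silent state. LSM14B had 369 and 342 CPM in the mimic AGO2-IP, 101 and 86.9 CPM in the flow-through, 325 CPM in the control AGO2-IP and 45.7 CPM in the control flow-through. It was higher in AGO2-IP in both conditions, with a log2 fold change of 1.88 (SE 0.59, edgeR adjusted p = 0.11) in mimic cells and a log2 ratio of 1.93 in the control pair. LSM14A had 282 and 179 CPM in the mimic AGO2-IP, 192 and 49.9 CPM in the flow-through, 78.1 CPM in the control AGO2-IP and 102 CPM in the control flow-through. Its mimic log2 fold change was 1.02 (SE 0.66, edgeR adjusted p = 0.36), while the control AGO2-IP was below the control flow-through. The mimic value was 1.87 without flow-through replicate 1 and 0.44 without replicate 2.

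SF3B5 encodes the smallest subunit of SF3B and was the only member called in the main test. The gene lies on chromosome 6 (144094884 to 144095573, minus strand, GRCh38), and its annotated transcript is a single exon of 690 nt. It had 4.32 and 5.55 CPM in the mimic AGO2-IP (202 and 211 counts), 84.1 and 37.7 CPM in the flow-through (3954 and 1832 counts), 8.42 CPM in the control AGO2-IP (68 counts) and 41.8 CPM in the control flow-through (325 counts). AGO2-IP was lower in every pair, with a log2 fold change of -3.58 (SE 0.70, edgeR adjusted p = 0.049) in mimic cells and a log2 ratio of -3.16 in the control pair. The call stood at the threshold: 8 of 17 alternative settings kept the direction but not the call. Over all of them the fold change stayed between -3.91 and -2.60 and the adjusted p ranged from 4.59e-06 to 0.675. The highest adjusted p came without AGO2-IP replicate 1.

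SF3B1, the subunit that holds the branch point and is mutated in several cancers, had the highest value of the family. It lies on chromosome 2 (197388515 to 197435079, minus strand), and its annotated transcript has 6463 nt. The mimic AGO2-IP libraries held 579 and 1200 CPM, the flow-through libraries 143 and 54.9 CPM, the control AGO2-IP 175 CPM and the control flow-through 37.2 CPM. AGO2-IP was higher in both conditions, by 3.23 in mimic cells (SE 0.69, edgeR adjusted p = 0.054, and 0.0015 with the block) and by 1.34 in the control pair, on the log2 scale.

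SF3B6, which contacts the branch point adenosine, is about as short as SF3B5 (651 nt), but whether it followed SF3B5 is not settled. It had 42.9 and 23.5 CPM in the mimic AGO2-IP, 83.2 and 3.85 CPM in the flow-through (3911 and 187 counts), 18.2 CPM in the control AGO2-IP and 24.6 CPM in the control flow-through. The AGO2-IP values lay between the flow-through replicates, so the log2 fold change of -0.22 (SE 0.97, edgeR adjusted p = 0.91) has no settled sign. It was -1.16 without flow-through replicate 2 and 2.77 without replicate 1. SF3B3, SF3B2 and SF3B4 were at 1.33 (SE 0.59), 0.29 (SE 0.61) and -0.56 (SE 0.67).

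In SF3A, the other multi-protein part of the U2 snRNP, SF3A3 was the highest and SF3A2 the lowest. SF3A3 had 139 and 84.4 CPM in the mimic AGO2-IP, 112 and 64.5 CPM in the flow-through, 38.5 CPM in the control AGO2-IP and 45.8 CPM in the control flow-through, with a log2 fold change of 0.34 (SE 0.60, edgeR adjusted p = 0.75). SF3A2 had 12.0 and 38.9 CPM in the mimic AGO2-IP, 48.0 and 74.1 CPM in the flow-through, 39.1 CPM in the control AGO2-IP and 56.1 CPM in the control flow-through. SF3A2 was lower in AGO2-IP in each pair, at -1.35 (SE 0.74, edgeR adjusted p = 0.28). It is the most GC-rich member (66.5%), and with each library's GC trend removed its value was 0.10. U2AF2, which binds the polypyrimidine tract, had 131 and 130 CPM in the mimic AGO2-IP, 259 and 304 CPM in the flow-through, 121 CPM in the control AGO2-IP and 145 CPM in the control flow-through. Its 2 groups did not overlap, at -1.18 (SE 0.60, edgeR adjusted p = 0.25). U2AF2 has 60.5% GC, and with each library's GC trend removed its value was -0.17.

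The 13 PRPF genes had a median of 0.64, 10 of them above 0. The edgeR test called 0 of them, 3 had an unadjusted p under 0.05 (PRPF4B, PRPF8 and PRPF19), and PyDESeq2 called PRPF19. PRPF4B, a kinase of the tri-snRNP, was the highest, with 117 and 181 CPM in the mimic AGO2-IP, 78.6 and 22.6 CPM in the flow-through, 38.4 CPM in the control AGO2-IP and 26.0 CPM in the control flow-through. Its log2 fold change was 1.65 (SE 0.67, edgeR adjusted p = 0.17). PRPF8, the scaffold of the spliceosome's active site, had 1042 and 1398 CPM in the mimic AGO2-IP, 513 and 373 CPM in the flow-through, 468 CPM in the control AGO2-IP and 134 CPM in the control flow-through, and reached 1.45 (SE 0.58, edgeR adjusted p = 0.17). AGO2-IP was the higher fraction for PRPF8 in all pairs. PRPF19, a ubiquitin ligase that activates the spliceosome, was the lowest, with 53.2 and 48.3 CPM in the mimic AGO2-IP, 166 and 191 CPM in the flow-through, 65.0 CPM in the control AGO2-IP and 80.2 CPM in the control flow-through. The value was -1.89 (SE 0.61, edgeR adjusted p = 0.12), with no overlap between the groups.

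The design asks for short Sm and LSM mRNAs against long SF3 and PRPF mRNAs. By symbol, the 2 classes were almost level: the median log2 fold change was 0.29 over the 24 SNRP and LSM genes and 0.30 over the 22 SF3 and PRPF genes, a difference of 0.02. The difference ran from -0.71 to 0.65 over the alternative fits with the same classes. The class names are not a good guide to length, however, since the annotated transcripts of the SNRP and LSM genes ran from 452 to 12384 nt and those of the SF3 and PRPF genes from 651 to 9692 nt. Coding sequences separated the classes better, with medians of 374 and 1823 nt.

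By the length of the annotated transcript the medians lay far apart. The 10 members of at most 1000 nt had a median of -1.70 with 1 above 0, and the 28 members of at least 2000 nt had a median of 0.71 with 22 above 0, a difference of 2.41. The 9 members in between had a median of -0.56 with 4 above 0. Within the SNRP and LSM genes alone, the 8 short ones (SNRPD2, LSM2, LSM7, LSM10, SNRPF, SNRPC, SNRPG and LSM1) had a median of -1.70 and the 11 long ones 1.02, although the coding sequences of the 11 start at 240 nt. The 5 SNRP and LSM genes in between had a median of 1.09, no lower than that of the long ones. Within SF3 and PRPF the 2 short genes, SF3B5 and SF3B6, had a median of -1.90, the 4 in between -0.92 and the 16 long ones 0.49.

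Length went with the fold change in all protein-coding genes too. Of 243 with transcripts under 700 nt, the median was -1.58 and 24 were above 0, beside a median of -1.98 and 0 of 6 for the members. Of 4933 with transcripts of 4000 nt or more, the median was 0.32 and 60.8% were above 0, beside 1.33 and 10 of 11 for the members. Across the 47 members, Spearman's rho of the fold change was 0.55 with transcript length, 0.22 with coding length and -0.56 with GC content. Over all protein-coding genes these were 0.30, 0.22 and -0.55. Members share the same 4 libraries, and the lengths are those of 1 annotated transcript. Which form the cells made was not measured.

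**Figure D3:**
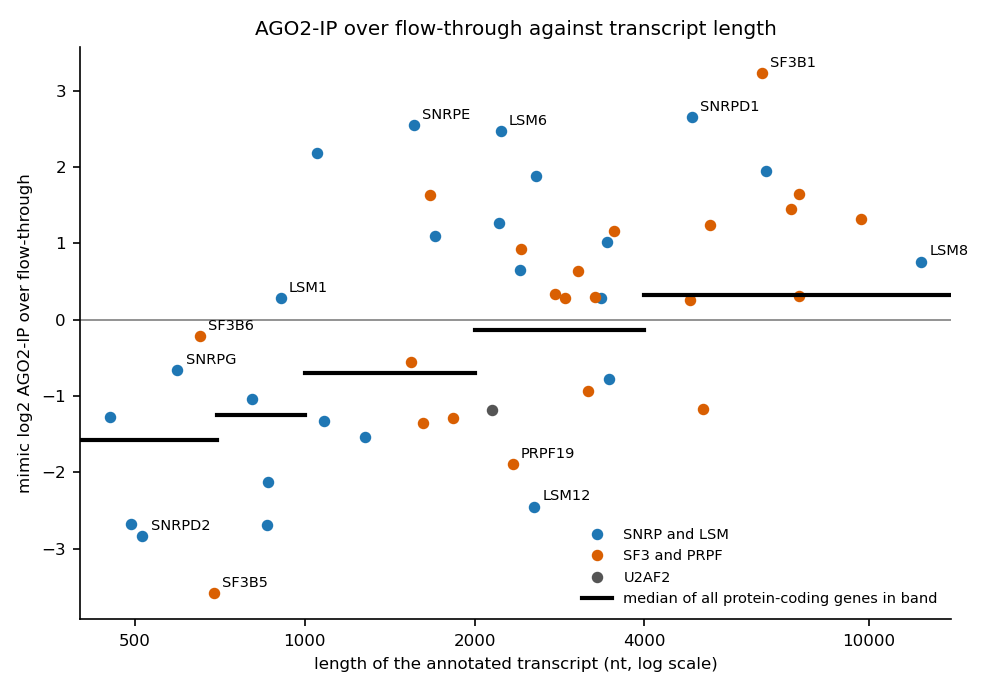
The x axis is the length of the annotated transcript in nt (log scale) and the y axis the mimic log2 fold change of AGO2-IP over flow-through. Points are the 47 members, coloured by symbol, and black bars are the median of all protein-coding genes tested in each length band. Members under 1000 nt lie below 0 apart from LSM1, and blue and orange points mix at lengths from 1000 to 9692 nt.

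The 2 flow-through libraries of the mimic cells differed most on members of low GC content. Replicate 2 was lower than replicate 1 by at least 2 on the log2 scale for 6 members (SNRPG, SF3B6, LSM3, LSM5, LSM6 and SNRPB2), 12.8% of the family against 8.79% of all genes. The log2 difference of replicate 2 over 1 ran from -4.34 for SNRPG to 2.21 for PRPF31, while that of the AGO2-IP replicates ran from -1.28 to 1.76. For LSM3 the counts were 2948 and 149, and for LSM5 they were 2779 and 245. The difference went with GC content in the members (Spearman's rho 0.78, n = 47) and in all protein-coding genes (0.75, n = 11747). Without flow-through replicate 1 the fit called 17 members enriched and 12 depleted (36.2% and 25.5%, against 20.2% and 20.6% of all genes). Without replicate 2 it called 2 and 6 (4.26% and 12.8%, against 1.9% and 3.4%).

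**Figure D4:**
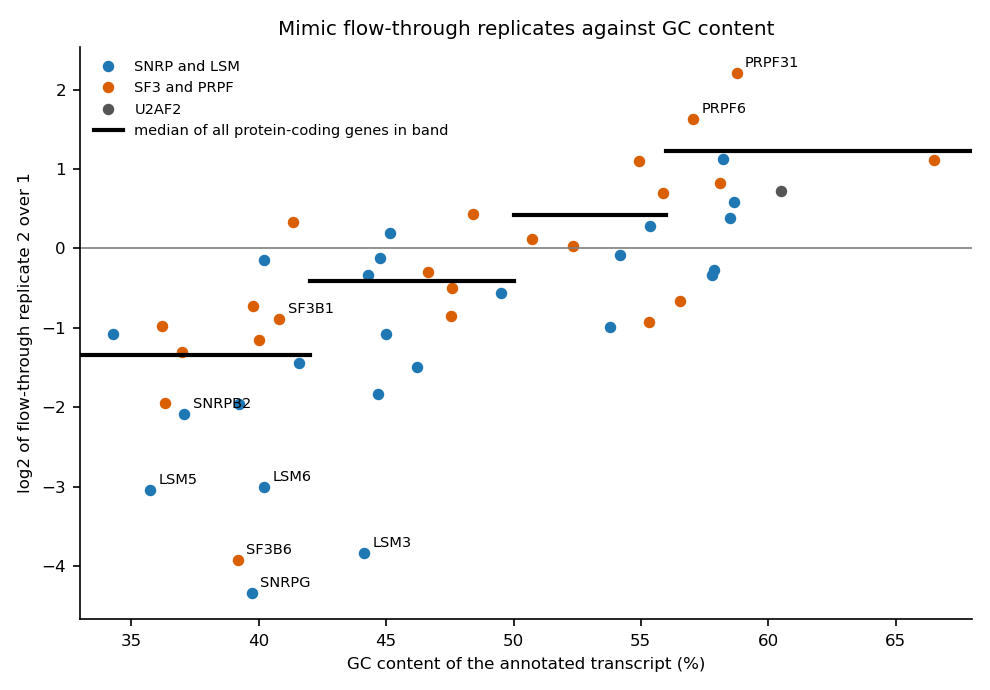
The x axis is the GC content of the annotated transcript in percent and the y axis the log2 ratio of mimic flow-through replicate 2 over replicate 1. Points are the 47 members, coloured by symbol, and black bars are the median of all protein-coding genes in each GC band. The lowest points are SNRPG, SF3B6 and LSM3, and the highest is PRPF31.

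In control cells the same fractions were compared with 1 library each, so the values have no replicate check and no p. Of 43 members with enough counts, 5 had a log2 ratio of AGO2-IP over flow-through of at least 1 (LSM14B, LSM11, SF3B1, SF3B3 and LSM4), 11.6% against 15.9% of all genes. There were 21 at -1 or below, 48.8% against 18.1% of all genes, and the median was -0.95 where that of all 8245 genes was 0.01. The share of mitochondrial counts in the control flow-through weighs on the scaling here. With library size alone in place of TMM the median of all genes moved by 0.88, and 13 members were at 1 or above (30.2% against 46.1% of all genes) and 10 at -1 or below (23.3% against 5.06%). Those 10 were SF3B5, SNRPD2, SNRPF, LSM2, LSM12, LSM8, SNRPG, LSM7, SNRPA and LSM10.

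Several members were low in both conditions. SF3B5, SNRPD2, LSM2, LSM7, LSM12 and LSM10 had control log2 ratios from -3.16 to -1.91 beside mimic values from -3.58 to -2.13. SNRPF was lower in the control pair (-3.08) than in mimic cells (-1.28). At the high end the order differed, as SNRPD1 had 2.65 in mimic cells and 0.05 in the control pair, and of the 5 highest control members only SF3B1 is among the 5 highest in mimic cells. Across the 43 members, mimic and control values gave 0.79 as Pearson's r and 0.77 as Spearman's rho, beside 0.60 and 0.56 over 8106 protein-coding genes. The 2 comparisons share no library. By length, the 9 members of at most 1000 nt with a control value had a control median of -2.12 and 0 above 0. The 8 between these lengths had a median of 0.02 with 4 above 0. The 26 of at least 2000 nt had a median of -0.74 with 11 above 0, so the control medians did not rise steadily with length. Short protein-coding genes were low in the control pair too. Under 700 nt their median was -1.63, with 14 of 174 above 0, beside -2.60 for 6 members. From 700 to 1000 nt it was -1.13, with 52 of 241 above 0, beside -1.91 for 3 members. From 1000 to 2000 nt the medians were -0.30 for protein-coding genes and 0.02 for members. From 2000 to 4000 nt the medians were 0.04 for protein-coding genes and -0.95 for members. At 4000 nt or more they were 0.18 and 0.05. The control ratio had nearly no relation to GC content in the members (rho -0.04).

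Set directly against the control AGO2-IP, the mimic AGO2-IP had the higher relative level for 34 of 47 members, beside 5822 of 11467 genes tested. The log2 ratio of mimic over control AGO2-IP was at least 1 for 22 of 47 members, 46.8% against 17.3% of all genes, and at most -1 for 0, against 17.4%. With library size alone these were 20 and 0 (42.6% against 14.2%, and 0 against 20.7%). The median was 0.93, where that of all genes was 0.02. SF3B1 was the highest at 2.39, with single-library ratios of 1.83 and 2.94, followed by SNRPD1 at 2.22 (2.35 and 2.09) and LSM8 at 2.22 (2.26 and 2.18). LSM12 was the lowest at -0.75. Both mimic libraries were above the control library for 29 members (61.7%, against 41.1% of all genes) and both below it for 9 (19.1%, against 39.7%).

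These ratios went with base composition. Spearman's rho with GC content was -0.71 over the members and -0.60 over 10810 protein-coding genes. Of the 16 members under 42% GC, 14 were at 1 or above (87.5%), beside 39.7% of the protein-coding genes in that band, and in the band of 42% to 50% GC 6 of 12 members were, beside 16.2%. From 50% to 56% GC, 1 of 8 members was (12.5%), beside 5.49% of the protein-coding genes. At 56% GC or more, 1 of 11 members (PRPF6, at 1.57) was (9.09%), beside 2.17%. The control libraries also differ from the mimic ones in depth and in the share of reads on genes. The parts of composition, depth and the mimic in this difference were not tested.

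**Figure D5:**
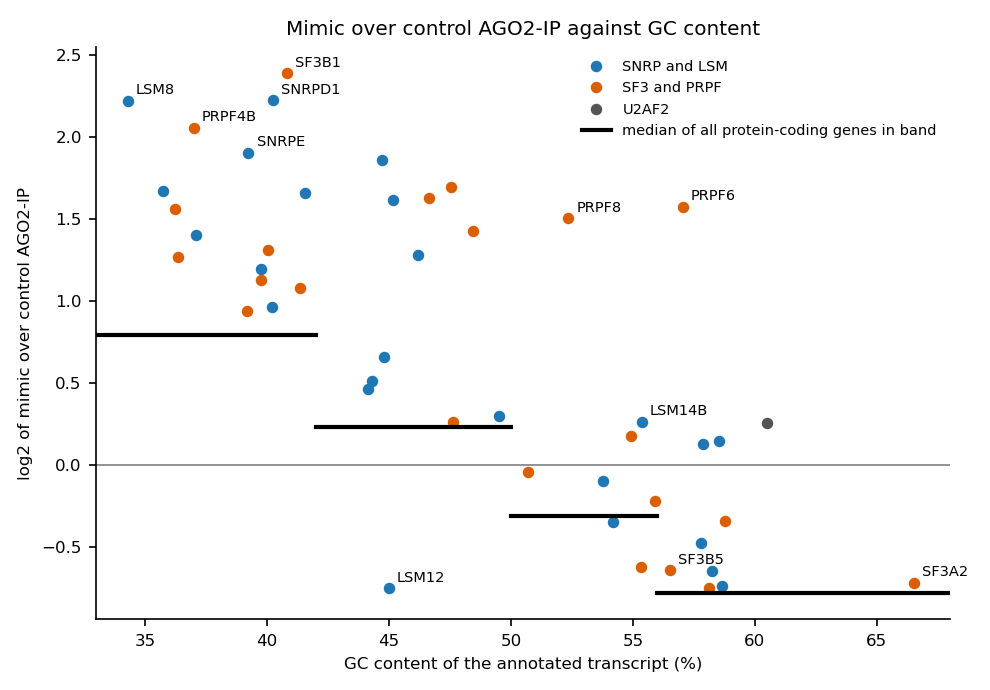
The x axis is the GC content of the annotated transcript in percent and the y axis the log2 ratio of mimic over control AGO2-IP (2 mimic libraries, 1 control library). Points are the 47 members, coloured by symbol, and black bars are the median of all protein-coding genes in each GC band. Of the 47 points, 44 lie above the bar of their band, and SF3B1, SNRPD1 and LSM8 are the highest.

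In the flow-through the family was close to the other genes. The log2 ratio of mimic over control flow-through was at least 1 for 3 members (PRPF6, SF3B3 and PRPF8) and at most -1 for 3 (LSM3, SNRPG and LSM6), each 6.38% against 10% and 10.2% of all genes, with a median of 0.09. LSM3, SNRPG and LSM6 are among the 6 members that were lower in mimic flow-through replicate 2. With library size alone, which moved the median of all genes by 0.47, 9 members were at 1 or above and 1 at -1 or below (19.1% and 2.13%, against 26% and 4.16%).

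Of all 5 members with a seed match, 4 had a mimic log2 fold change above 0 and 1 below it, with a median of 1.45 beside 0.28 for the 42 members without one. In the control pair, too, 4 were above 0 and 1 below. Over all protein-coding transcripts the medians with and without the 6 letters were 0.02 and -0.06. With so few sites, all but 2 of them of 6 letters, this is a description of 5 genes.

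Other proteins of the same pathway were tested in the same fit, which called 0.245% of all genes enriched and 0.413% depleted, so that counts of 0 in short lists say little about them. Of 20 further proteins of snRNPs and other parts of the spliceosome, all 20 were tested and 0 were called. Their median was 0.74, from -1.64 for SNRNP25, a protein of the minor spliceosome, to 2.71 for SART1, a tri-snRNP protein. Of 13 genes that methylate Sm proteins or load them on snRNA, 12 were tested and 0 called, with a median of 0.52, from -0.94 for PRMT5, the arginine methyltransferase, to 2.86 for CLNS1A, its partner pICln. All 8 decapping partners of the cytoplasmic LSM ring were tested and 0 called, with a median of 1.35 and values from 0.03 to 2.08. At an unadjusted p under 0.05, edgeR gave 5, 2 and 3 genes of these lists with positive and 1, 0 and 0 with negative values, where 10.6% and 13.1% of all genes did so. With the replicate block 1, 2 and 1 genes were called enriched and 0 depleted, against 4.6% and 5.08% of all genes.

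Some members share sequence or exons with other genes, which bears on their counts. The 73 processed pseudogenes that carry a member's name held 1370 counts in the mimic libraries, 0.134% of the members' counts. The 20 pseudogenes of SNRPG held 724 counts, 11.1% of the counts of SNRPG itself and the highest share of any member, so its values are uncertain in this respect. Exons overlapping other genes made up 48.7% of the exonic bases of PRPF40B, 37.9% of LSM1 and 31.3% of PRPF31, all on the opposite strand. Unstranded counting leaves out reads in such overlaps, and for PRPF40B the stranded columns together held 6.38 times the unstranded count.

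The 3 genes below the filter had few counts in these tables. SNRPN, which encodes SmN in neurons, was counted 0 and 1 times in mimic AGO2-IP, 1 and 3 times in mimic flow-through and 0 times in both control libraries. Other genes on the same strand share 43.9% of its exonic bases, and reads there are not counted for it. Its low counts therefore do not show that it was not expressed. U2AF1, which reads the AG at the end of the intron, was counted 48 and 26 times in mimic AGO2-IP, 42 and 20 times in mimic flow-through and 4 times in each control library. A second annotated copy of U2AF1 on chromosome 21 (6484623 to 6499248) had 83 counts over the mimic libraries. Reads that map equally to both copies are not counted for either, so these values do not measure U2AF1 expression. U2AF1L4 had 164 counts over the mimic libraries, and 24.8% of its exonic bases are shared with another gene on the same strand.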

How the data were processed

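Ago-RIP-seq libraries of MDA-MB-231 cells were made with the MGIEasy kit and sequenced as pairs on the DNBSEQ-T7. Per the labels and methods, the authors checked reads with FastQC 0.11.9, trimmed with Cutadapt 3.5, aligned to GRCh38 with STAR 2.7.11b and counted per gene. The annotation release is not given in the sources used here. The deposited values are whole-number counts, unstranded (used here) and per strand. Strands were evenly used (49.0% to 55.1% in the first strand column). Rows that name no gene, 21.4% to 95.0% of read pairs, were left out. GENCODE 44 named 60463 of 60708 identifiers and gave transcript length and GC content. IgG libraries were not analysed here.

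Mimic fractions were compared with edgeR 4.0.16 (R 4.3.3, TMM, glmQLFit, glmQLFTest) over genes with at least 200 counts in 4 libraries, and p-values were Benjamini-Hochberg adjusted over all 13078 genes. SE is the fold change divided by the square root of F. Replicate numbers mark biological replicates and pair the fractions, and deviations of same-numbered libraries had r = 0.324. The main fit leaves this pairing out, and the fits with the replicate block use it. Comparisons with a control are log2 ratios of TMM-scaled CPM (prior count 2, at least 200 counts) without p. Single-library differences use the same scale. PyDESeq2 0.5.4 stood in for the authors' version. Other scalings, filters, count columns, the replicate block, lowess trends on GC content and length (span 0.2), thinning and leaving out libraries were tried. P-values measure only the spread between these libraries.

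Values per library are given for the highest and lowest member of each role, called members, and SF3B1, SF3B5, SF3B6, LSM14A, LSM14B, PRPF8, SNRPN and U2AF1. For the lists of other pathway genes at most 4 genes are named. Members and lists were chosen with earlier results of these data known. The sequence of 1 seed site is not reported here.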

Additional observations from a re-analysis of the deposited data

Results flagged for a closer look

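For 5 of 43 members (11.6%) every mimic AGO2-IP library lay above every mimic flow-through library. In the same 5 the control AGO2-IP lay below the control flow-through. They were LSM14A (mimic 1.02, control -1.28 on the log2 scale), LSM5 (1.27 and -0.82), LSM8 (0.76 and -2.18), PRPF3 (0.93 and -0.66) and PRPF4B (1.65 and -0.33). Of all genes measured in both, 11.6% had the mimic libraries on one side and the control ratio on the other. That share counts either direction, and the share for this direction alone was not computed. With a single control library for each fraction, the difference between conditions was not tested. With library size alone the control value was positive for LSM5 (0.06), PRPF3 (0.22) and PRPF4B (0.56) and negative for LSM14A (-0.39) and LSM8 (-1.31). With the GC trend removed, that of PRPF4B was 0.16. These members are of low or middling GC content (34.3% to 47.6%), and the part of base composition was not tested. Without flow-through replicate 1 or 2 the mimic value of LSM14A was 1.87 or 0.44, that of LSM5 3.45 or 0.40 and that of LSM8 1.36 or 0.29. With the GC trend removed the mimic value of LSM8 was -0.17. No group has the 4 libraries needed to look for single outlying samples.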

How the results depend on the processing

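Numbers of members called moved with the settings. Enriched calls, 0 in the fit reported, were 3 without a count filter, 1 at a summed count of at least 1000, 5 with the replicate block, 3 with the GC trend removed, 11 with the replicate block and the GC trend removed, 5 with the replicate block and the length trend removed, 7 by PyDESeq2 and 0 to 17 when a replicate was left out. Depleted calls, 1 in the fit reported, were 0 with DESeq2 size factors, library size alone, either strand column, protein-coding genes only or the length trend removed, 3 at a summed count of at least 1000, 5 with the replicate block, 3 with the GC trend removed, 10 with the replicate block and the GC trend removed, 2 with the replicate block and the length trend removed, 7 by PyDESeq2 and 0 to 12 when a replicate was left out. The median of the SNRP and LSM genes (0.29) was -0.16 with the GC trend removed, -0.10 with the replicate block and the GC trend removed, 1.07 with the replicate block and the length trend removed, and -0.36 to 1.11 when a replicate was left out. The median of the SF3 and PRPF genes (0.30) was 0.70 without a count filter, 0.053 with the replicate block and the GC trend removed, and 0.017 to 0.55 when a replicate was left out. The difference of the class medians (0.02) was -0.29 with the replicate block, -0.063 with the length trend removed, -0.71 with the replicate block and the length trend removed, -0.092 after thinning to the shallowest library, 2.41 with classes by transcript length, and -0.63 to 0.65 when a replicate was left out. In mimic over control AGO2-IP that difference (0.52) was -0.053 with the GC trend removed and 0.18 to 0.56 when a replicate was left out. In control cells that difference was 0.64 and between the flow-through fractions 0.44. With 1 control library per fraction there is no spread against which to judge how these values moved with the settings. Of 323 values of the 19 members given by library under the naming rule, 247 kept their direction and call, 61 gained a call and 8, all of SF3B5, lost it. The 7 of these that changed sign were SF3A2 with the GC trend removed (0.10), SF3A3 without AGO2-IP replicate 1 (-0.036; leaving out each replicate in turn gave up to 0.59), and SF3B6 with the replicate block (0.78), the length trend removed (0.90), the replicate block and the length trend removed (1.77), without AGO2-IP replicate 2 (0.11) and without flow-through replicate 1 (2.77), beside -1.16 without flow-through replicate 2. Over all 47 members, 14 changed sign under at least 1 of 10 settings (block, trends, PyDESeq2 and left-out libraries), among them SNRPG (0.47 with the replicate block) and LSM3 (-0.65 without flow-through replicate 2). The cause was not tested, except that leaving out a library leaves fewer samples.

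Control libraries hold 7772149 and 8076375 gene counts, their ratios carry counting error that was not replicated, and the 4 members absent from the control comparison were under 200 counts there. With 1 library left in an arm, that library is assumed to vary like the other group.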
